A study of Mus musculus with 10 samples.

Results

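The Wnt/β-catenin signalling genes of the blood–brain barrier were followed in brain endothelial cells (BECs) of an Alzheimer's disease mouse model. The genes were 10 named components: the receptors Fzd4 and Fzd6, the co-receptors Lrp5 and Lrp6, the receptor cofactors Tspan12, Adgra2 and Reck, the transcription factor Lef1, and the target genes Apcdd1 and Axin2. They were found by their GENCODE mouse M21 symbols among 14106 genes with values, and 9 of the 10 had a value. Fzd6 is not analysed here. Total RNA was sequenced from the cortical BECs of 1 year old female mice as 5 libraries of APP/PS1 mice and 5 of control mice of that age and the same C3H/BL6 background, which are labelled WT. APP/PS1 mice carry transgenes that cause amyloid β (Aβ) to deposit in the brain, and the study asked which endothelial genes differ in them, since the barrier of these mice was examined for leakage. The cells were enriched from perfused, dissociated cortex with CD31 microbeads after myelin removal, and the sources used here do not say if animals were pooled for a library, so each p value measures only the spread between these libraries.

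Brain endothelium acquires and keeps its barrier through canonical Wnt signalling. Wnt7a and Wnt7b from neural cells act through Frizzled receptors with the cofactors Reck and Adgra2 (also named Gpr124), and norrin acts through Fzd4 with the cofactor Tspan12. Both routes use the co-receptors Lrp5 and Lrp6, keep β-catenin from being degraded and let it act in the nucleus with Lef1 and the TCF proteins. Apcdd1 and Axin2 are induced by the pathway and in turn restrain it, so their RNA is commonly read as a sign of its activity.

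Values are log2 CPM, the counts of a gene scaled to a fixed library total,, which the authors corrected for batch before they deposited them. Each of 5 batches held 1 control and 1 APP/PS1 library, named here by a shared number from 1 to 5. The correction set the batches to nearly the same mean for each gene: the 5 batch means of a gene had a median SD of 0.00353 log2 units, against 0.173 for the 5 within-batch differences. The 2 libraries of a batch therefore sit on opposite sides of a common mean, and each difference below is the mean of 5 within-batch differences, APP/PS1 minus control, on the log2 CPM scale. The adjusted counts behind the values totalled 22371766 to 126686149 per library, lowest in the libraries numbered 1, and the smallest adjusted count of any of the 9 genes was 2168. All 10 endothelial markers had values, including Pecam1, Cdh5 and Kdr, and their summed level was 18304 to 19117 CPM in control and 19032 to 19959 CPM in APP/PS1 libraries.

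No difference between APP/PS1 and control BECs was detected in any of the 9 genes. The limma model with batch as a term, adjusted over all genes by the Benjamini-Hochberg method, called 0 of 9 genes at an adjusted p under 0.05, and it called 0.0% of all 14106 genes. The paper did report genes that differed between these groups, from limma at an adjusted p under 0.05 with a fold-change limit. Its description of that fit names no batch term. At an unadjusted p under 0.05 the model with the batch term called 0 of 9 genes, beside 8.03% of all genes. limma-voom on the adjusted counts likewise called 0 of 9 genes, and none of the 9 had an unadjusted p under 0.05 there. The differences were small and their intervals narrow. They ran from −0.01 for Reck to 0.13 for Axin2, and the 95% intervals of 7 of 9 genes, all but Apcdd1 and Axin2, lay within a 1.2-fold change in either direction, as did those of 51.6% of all genes. All 9 intervals lay within 1.5-fold, beside 85.2% of all genes. In every one of the 9 genes the control and APP/PS1 libraries overlapped, and the groups overlapped in all but 7.88% of all genes. Because the batches were set to nearly the same mean, groups separate almost only where every batch differs in the same direction. The overlap therefore largely restates the batch directions given below. With 9 genes, 0 of 9 cannot be told apart from a share of 7.88%.

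**Figure D1:**
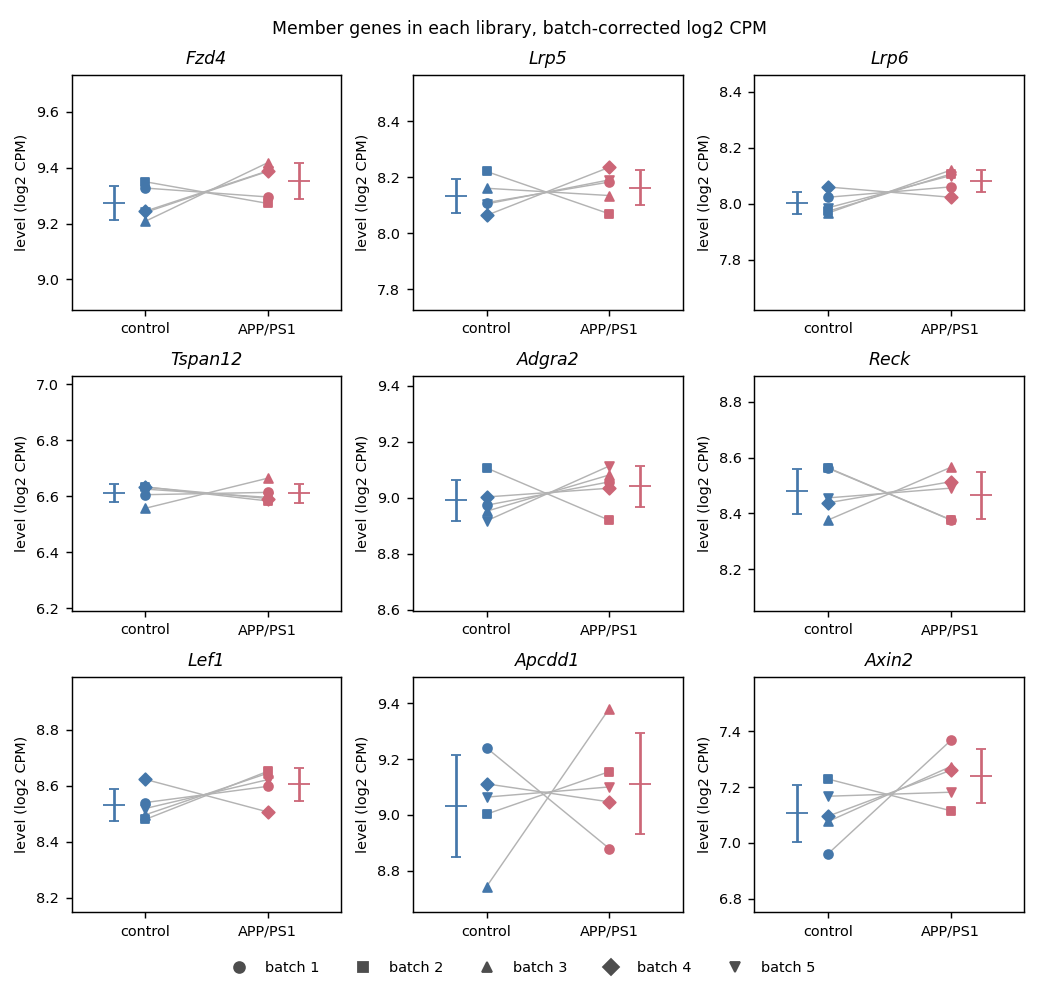
Level of each of the 9 genes in each library (vertical axis, batch-corrected log2 CPM, all panels spanning the same number of log2 units), control in blue and APP/PS1 in red, with grey lines joining the libraries of a batch and bars giving mean ± SD (n = 5). The lines cross near a common mean because the batches were set to one mean, the groups overlap in every panel, and Apcdd1 has the widest spread.

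Fzd4 (ENSMUSG00000049791, chr7:89404355-89413134 in the GENCODE M21 annotation of GRCm38, as for the genes below) is the Frizzled receptor through which norrin acts, and it also serves Wnt7 signals. Its level was 9.33, 9.35, 9.21, 9.24 and 9.24 log2 CPM in control libraries 1 to 5 and 9.30, 9.27, 9.42, 9.39 and 9.39 in APP/PS1 libraries 1 to 5. APP/PS1 was higher in 3 of 5 batches, those numbered 3, 4 and 5, and the groups overlapped. The difference of Fzd4 was 0.08 log2 units (95% interval −0.07 to 0.23, limma adjusted p = 0.834).

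The co-receptors Lrp5 (chr19:3584828-3686564) and Lrp6 (chr6:134446476-134566965) carry the signal from Frizzled to the inside of the cell. Lrp5 stood at 8.11, 8.22, 8.16, 8.06 and 8.10 log2 CPM in control libraries 1 to 5 and at 8.18, 8.07, 8.13, 8.24 and 8.19 in APP/PS1. Its libraries were interleaved, with a difference of 0.03 (−0.12 to 0.18, limma adjusted p = 0.927). Lrp6 stood at 8.02, 7.97, 7.97, 8.06 and 7.99 log2 CPM in control and at 8.06, 8.11, 8.12, 8.02 and 8.10 in APP/PS1 libraries. It was higher in APP/PS1 in 4 of 5 batches, and only the batch numbered 4 ran the other way. The difference of 0.08 (−0.04 to 0.20) had the smallest adjusted p of the 9 genes and did not pass the test (limma adjusted p = 0.784).

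Among the cofactors, Tspan12 (chr6:21771395-21852515), the tetraspanin that boosts norrin signalling through Fzd4, was the steadiest of the 9 genes. Its level was 6.61, 6.63, 6.56, 6.63 and 6.63 log2 CPM in control libraries 1 to 5 and 6.61, 6.58, 6.66, 6.59 and 6.60 in APP/PS1. The 10 values spanned 0.108 log2 units, and the SD of its within-batch differences, 0.0647, lay at percentile 6.59 of all genes. The 95% interval of the Tspan12 difference ran from −0.11 to 0.11 (limma adjusted p = 0.999).

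Reck (chr4:43875530-43944806), a membrane-anchored protein that binds Wnt7, and Adgra2 (chr8:27085583-27123436), the adhesion receptor that joins it to Frizzled, form the Wnt7 cofactor pair. Reck read 8.56, 8.56, 8.38, 8.44 and 8.46 log2 CPM in control libraries 1 to 5 and 8.38, 8.38, 8.57, 8.51 and 8.49 in APP/PS1. It was lower in APP/PS1 in batches 1 and 2 and higher in batches 3, 4 and 5, and the difference was −0.01 (−0.19 to 0.17, limma adjusted p = 0.973). Adgra2 read 8.97, 9.11, 8.95, 9.003 and 8.92 in control libraries and 9.06, 8.92, 9.08, 9.03 and 9.11 in APP/PS1 libraries. APP/PS1 was higher in 4 of 5 batches, the exception being batch 2, and the difference of Adgra2 was 0.05 (−0.11 to 0.22, limma adjusted p = 0.892). It was 0.11 without batch 2 and 0.014 without batch 5.

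Lef1 (chr3:131110471-131224356) binds DNA with β-catenin and is itself induced by the pathway in endothelium. Its level was 8.54, 8.48, 8.50, 8.62 and 8.52 log2 CPM in control libraries 1 to 5 and 8.60, 8.65, 8.64, 8.51 and 8.62 in APP/PS1. It was higher in APP/PS1 in every batch but the one numbered 4. The difference of Lef1 was 0.07 (−0.07 to 0.22, limma adjusted p = 0.837), within the spread of its within-batch differences (SD 0.115, n = 5).

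The target genes spread most. Axin2 (chr11:108920349-108950783), a scaffold of the complex that degrades β-catenin and a feedback target in most tissues, stood at 6.96, 7.23, 7.08, 7.10 and 7.17 log2 CPM in control libraries 1 to 5 and at 7.37, 7.12, 7.27, 7.26 and 7.18 in APP/PS1. Batch 1, the batch of lowest depth, had the largest within-batch difference, 0.405. With the batches set to nearly the same mean, it therefore held both the lowest and the highest of the 10 values. APP/PS1 was higher in 4 of 5 batches. The Axin2 difference was the highest of the 9 genes at 0.13 (−0.07 to 0.34, limma adjusted p = 0.790), a fold of 1.10 with bounds of 0.952 and 1.26. Without the libraries numbered 1 the difference of Axin2 was 0.07.

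Apcdd1, a membrane-bound inhibitor that limits Wnt signalling in brain and retinal vessels, stood at 9.24, 9.003, 8.74, 9.11 and 9.06 log2 CPM in control libraries and at 8.88, 9.16, 9.38, 9.05 and 9.10 in APP/PS1 libraries. The extreme within-batch differences had opposite signs. APP/PS1 was 0.36 log2 units below control in batch 1 and 0.64 above it in batch 3. The SD of the within-batch differences of Apcdd1, 0.364, lay at percentile 81.4 of all genes and was the highest of the 9. Its mean difference was 0.08 with an interval of −0.27 to 0.43 (limma adjusted p = 0.920), so a change of up to 1.34-fold up or to 0.831 of the control level was not excluded. Without the libraries numbered 3 the difference of Apcdd1 was −0.06.

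**Figure D2:**
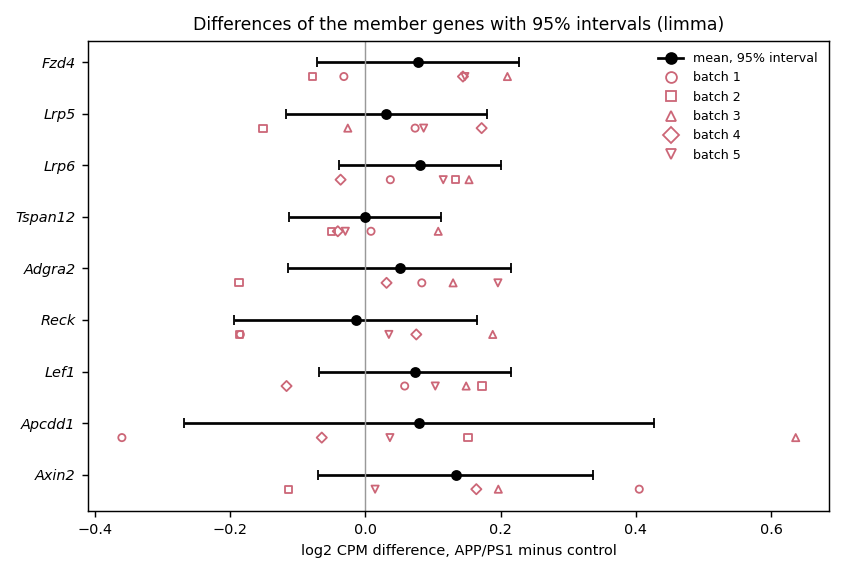
Difference of each gene between APP/PS1 and control (horizontal axis, log2 CPM), with black points and bars for the mean over 5 batches and its 95% interval from limma, and open symbols for the single batches. All 9 intervals include 0, and the batches of each gene lie on both sides of 0.

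Read together by batch, 6, 3, 8, 5 and 8 of the 9 genes were higher in APP/PS1 in batches 1 to 5. The median difference of the 9 genes was 0.04, −0.08, 0.15, 0.03 and 0.09 in those batches, while the median of all genes lay between −0.01 and 0.00. Batch 2 was the one in which most of the genes, 6 of 9, were lower. Over the mean differences, 7 of 9 genes (77.8%) were higher in APP/PS1, with a median of 0.07, beside 48.2% of all genes with a median of −0.00377. The lean was not particular to the 9 genes. Endothelial markers were higher in 8 of 10, with a median of 0.08, and the barrier genes described below in 8 of 10, with a median of 0.05. No gene of the 9 was higher in all 5 batches, as 2.99% of all genes were, and none was lower in all 5, as 5.0% were. The 9 genes were named with earlier results of these data known, so their shared sign is given as a count and not as a test.

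Over the 36 pairs of genes, the Pearson r of the 5 within-batch differences ran from −0.847 for Lrp5 with Lef1 to 0.980 for Fzd4 with Reck, with a median of 0.379. It was positive in 25 pairs and negative in 11. Each r rests on 5 points that share their libraries, and is a description only.

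Per length of transcript, the receptor and the Wnt7 cofactors stood highest. Mean levels over the 10 libraries, in adjusted CPM per kb of exon, were 94.7 ± 4.74 for Fzd4, 89.8 ± 4.59 for Adgra2 and 74.4 ± 4.04 for Reck (SD, n = 10). Lef1 followed with 43.2 ± 1.99 and Apcdd1 with 42.1 ± 5.13. Tspan12 had 29.5 ± 0.625, Lrp5 29.1 ± 1.22, Axin2 26.3 ± 2.11 and Lrp6 19.3 ± 0.754. All 9 genes stood between percentiles 83.4 and 97.5 of all genes on this scale. Most neighbours in the order kept their places in every library. Since the batches were set to nearly the same mean for each gene, the 10 libraries are not independent readings of the order. The SDs likewise leave out the spread between batches. Fzd4 exceeded Adgra2 in 10 of 10 libraries, though by a ratio of only 1.06, and Adgra2 exceeded Reck in 10 of 10 by 1.21. Lef1 exceeded Apcdd1 in 8 of 10 libraries and Tspan12 exceeded Lrp5 in 5 of 10, so the places within those pairs could not be told apart by their spread, and Lrp5 exceeded Axin2 in 9 of 10. Of the co-receptors, Lrp5 exceeded Lrp6 in 10 of 10 libraries, with a ratio of 1.51.

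**Figure D3:**
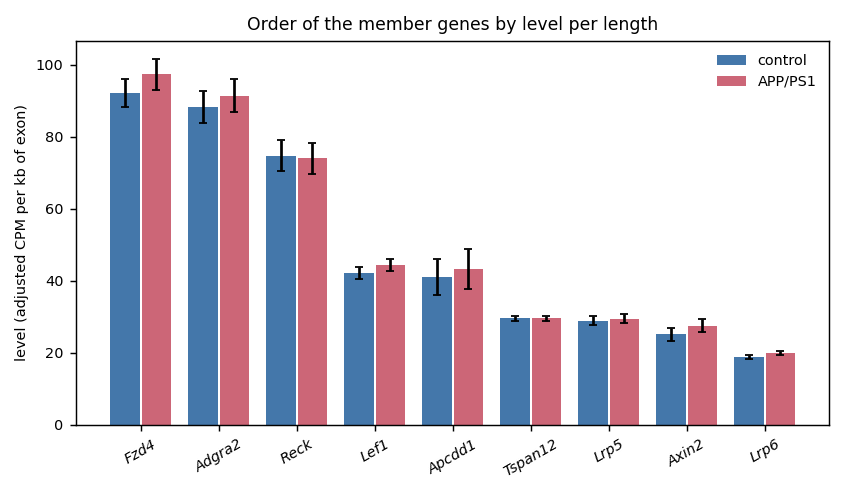
Mean level of each gene per length (vertical axis, adjusted CPM per kb of exon) in control and APP/PS1 libraries, with SD (n = 5 per group). The order is the same in both groups, with Tspan12 and Lrp5 nearly level, and runs from Fzd4 at 94.7 to Lrp6 at 19.3 over all libraries.

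Since Lef1 and TCF proteins act by binding DNA, the promoters of the genes were searched for their core letters. The RefSeq table of starts (GRCm38.p6) held 8 starts for 5 of the 9 genes, namely Fzd4, Tspan12, Reck, Lef1 and Axin2. The motif was CTTTG followed by 2 letters that were each A or T, which cannot overlap itself on one strand, and it was sought on both strands in the 250 bases before each start. It occurred before 2 of the 8 starts and before 14.8% of the 32851 starts in the table. The windows that held a match are shown with 20 bases on either side because they held the only matches in the bases searched. The match is in capitals as it reads on the gene's own strand.
Lef1 (GRCm38.p6, chr3:131156127-131156173, + strand, the most downstream of 4 starts): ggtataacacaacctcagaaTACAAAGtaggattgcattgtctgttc
Reck (GRCm38.p6, chr4:43875389-43875435, + strand): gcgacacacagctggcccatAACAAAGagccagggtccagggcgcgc
The match lay 147 bases before the Lef1 start and 121 bases before the Reck start. The 3 upstream starts of Lef1 and the starts of Fzd4, Tspan12 and Axin2 held none of these letters in the window searched. A match is a run of letters and not a measured binding site.

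The rest of the pathway was read from lists of 105 other Wnt genes, of which 67 had values. limma called 0 of the 67 at an adjusted p under 0.05, and limma-voom also called 0. At an unadjusted p under 0.05 limma held 6 of 67, beside 8.03% of all genes, and limma-voom held 9 of 67, beside 7.27% of all genes. All 6 were lower in APP/PS1, and 5.91% of all genes were lower at an unadjusted limma p under 0.05. Of the 67 genes 39 were higher and 28 lower, with a median difference of 0.01. The groups did not overlap in 7 of 67, beside 7.88% of all genes. In all 5 batches 2 were higher and 6 lower, beside 2.99% and 5.0% of all genes.

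Of 26 listed ligands, enhancers and export factors, 8 had values. Wnt7a, Wnt7b and Ndp, the ligands of the barrier, are not analysed here. Wnt5a, a ligand that mostly signals without β-catenin, was 6.24, 5.98, 6.14, 6.32 and 6.28 log2 CPM in control libraries 1 to 5 and 5.80, 6.04, 5.92, 5.71 and 5.76 in APP/PS1. The groups overlapped through batch 2, the only one in which APP/PS1 was higher. Its difference was −0.34 (−0.61 to −0.08, limma adjusted p = 0.569). The differences were −0.48 for Wnt2b, 0.30 for Wnt11, 0.05 for Wnt5b, 0.01 for Wnt9a and −0.59 for Rspo3, an enhancer of Wnt signalling, with limma adjusted p from 0.627 to 0.987. The smallest adjusted count of Rspo3 was 8. Those of Porcn and Wls, which acylate and export Wnt proteins, were −0.09 and −0.10.

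Receptors other than the 9 genes had values for 9 of 14, with differences from −0.11 for Ror1 to 0.21 for Fzd5 and a smallest limma adjusted p of 0.815. The other Frizzled genes with values were Fzd1, Fzd3, Fzd7, Fzd8 and Fzd9, at 0.00, −0.05, 0.05, −0.00 and −0.06. Ryk, a receptor tyrosine kinase-like Wnt receptor and the one of this list with the highest level per length (12.3 CPM per kb), was at −0.07, and Lgr4, an R-spondin receptor, was at −0.04. Fzd4 was thus 94.7 CPM per kb where no other listed receptor with a value passed 12.3.

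All 20 listed cytoplasmic transducers had values, and 15 were higher and 5 lower. Ctnnb1, which encodes β-catenin, had 293 CPM per kb and a difference of −0.05 (limma adjusted p = 0.877). Gsk3b, the kinase that marks β-catenin for degradation, was at 0.10, and Axin1, Apc and Dvl1 lay between 0.05 and 0.06. Apc2, a relative of Apc known mainly from neurons, was the exception at −0.90 (−1.47 to −0.34, limma adjusted p = 0.537). Apc2 was lower in all 5 batches and its groups did not overlap, but its smallest adjusted count was 25.

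Among 13 nuclear factors, 7 were higher and 6 lower. Tcf7, a partner of β-catenin like Lef1, was at 0.15 (−0.11 to 0.41, limma adjusted p = 0.815), while Tcf7l1 and Tcf7l2 were at −0.09 and −0.18. Aes, a short co-repressor of the Groucho family and the nuclear gene with the highest level per length (58.1 CPM per kb), was at −0.02. Pygo1, a nuclear cofactor of β-catenin, was at −1.02 (limma adjusted p = 0.569) with adjusted counts down to 6.

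Secreted and feedback inhibitors had values for 8 of 22 genes, 4 higher and 4 lower. Nkd2, which binds Dishevelled, was 5.84, 5.74, 5.92, 5.78 and 5.69 log2 CPM in control libraries 1 to 5 and 5.48, 5.57, 5.39, 5.55 and 5.63 in APP/PS1. The groups of Nkd2 did not overlap, but its difference of −0.27 (−0.46 to −0.08) did not pass the adjusted test (limma adjusted p = 0.554). Dkk3 was at −0.74 (limma adjusted p = 0.550) and Shisa3 at −0.23 (limma adjusted p = 0.577), with adjusted counts down to 16 and 0. Znrf3, a ligase that removes Frizzled receptors and a feedback target, was higher in all 5 batches without overlap, at 0.12 (−0.00 to 0.25, limma adjusted p = 0.627). Notum, a Wnt-inactivating enzyme, was at 0.15, and Nkd1 was at 0.03.

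Of 9 further target genes with values, 7 were higher and 2 lower, with a median of 0.09 and none called. Sox17, an endothelial transcription factor, was 8.52, 8.80, 8.57, 8.63 and 8.69 log2 CPM in control libraries 1 to 5 and 8.95, 8.68, 8.92, 8.86 and 8.79 in APP/PS1. It was lower in APP/PS1 only in batch 2, and its difference was 0.20 (−0.02 to 0.42, limma adjusted p = 0.671). The barrier-forming factors Foxq1 and Foxf2 were at 0.09 and 0.06. The receptor Tnfrsf19 and the nuclear receptor Ppard were at −0.02 and 0.03, Ccnd1 and Sp5 at 0.09 and 0.12, and Myc at −0.31.

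**Figure D4:**
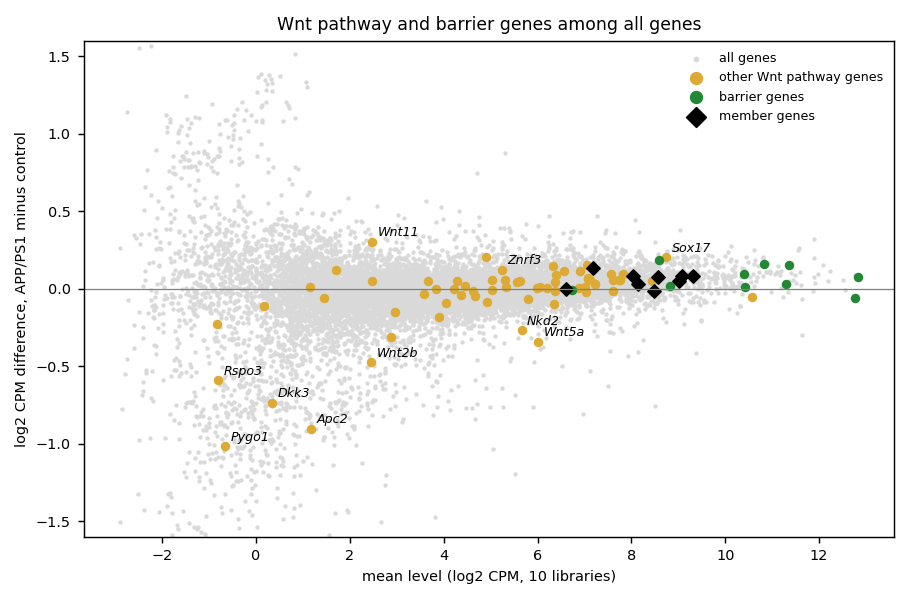
Difference between APP/PS1 and control (vertical axis, log2 CPM) against mean level (horizontal axis, log2 CPM over 10 libraries) for all genes in grey, 67 other Wnt pathway genes in yellow, 10 barrier genes in green and the 9 genes described first as black diamonds. The vertical axis is cut at 1.6 log2 units on either side, which leaves out 55 genes, and the black diamonds lie close to 0 at high levels, while Pygo1, Apc2 and Dkk3, with the largest differences of the Wnt genes, lie at low levels.

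Lower Wnt genes stood at all levels, but they were the larger share only at low levels. Of the 58 other Wnt genes whose mean reached 2 log2 CPM, 37 were higher and 21 lower, with a median of 0.02, and of the 9 genes below that level 7 were lower, with a median of −0.23. Lower at an unadjusted limma p under 0.05 were 2 of these 58 genes and 4 of the 9 below that level. Mural cell markers, the genes of pericytes and smooth muscle, were lower in the same libraries. All 10 of these markers had values. At an unadjusted limma p under 0.05, 9 of them were lower, beside 5.91% of all genes. In mean difference all 10 were lower. Their sum was 602 to 1009 CPM in control and 311 to 601 CPM in APP/PS1 libraries, a difference of −0.76 log2 units, and by batch −1.70, −0.32, −0.41, −1.35 and −0.00. Oligodendrocyte markers, 7 of 8 with values and all 7 lower, summed to 40.0 to 118 CPM in control and 30.3 to 69.8 CPM in APP/PS1 libraries.

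Batch by batch, the median of the 9 genes was 0.04 in batch 1 and 0.03 in batch 4, where the mural sum fell by 1.70 and 1.35, and 0.09 in batch 5, where it differed by −0.00. The endothelial sum differed by 0.08, −0.01, 0.12, 0.06 and 0.03 in batches 1 to 5, so it was lowest in batch 2 and highest in batch 3, as was the median of the 9 genes. Wnt5a differed by −0.44, 0.07, −0.22, −0.60 and −0.52 in batches 1 to 5. The part of cell composition in any of these differences was not tested, and in bulk RNA fewer cells of a type and less RNA per cell cannot be told apart. Markers of astrocytes, neurons, microglia and oligodendrocyte precursors had summed differences between −0.04 and 0.01, but a sum is carried by its most abundant genes. Of the astrocyte markers 7 of 8 were lower, with a median of −0.96, while the most abundant, Gja1, was at 0.27. Of the neuron markers with values 3 of 4 were lower, with a median of −0.61, while the most abundant, Stmn2, was at 0.02. Of the precursor markers 2 of 4 and of the microglia markers 4 of 7 were lower. The 3 fibroblast markers with values summed to 6.70 to 7.88 CPM in control and 4.63 to 5.41 CPM in APP/PS1 libraries.

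**Figure D5:**
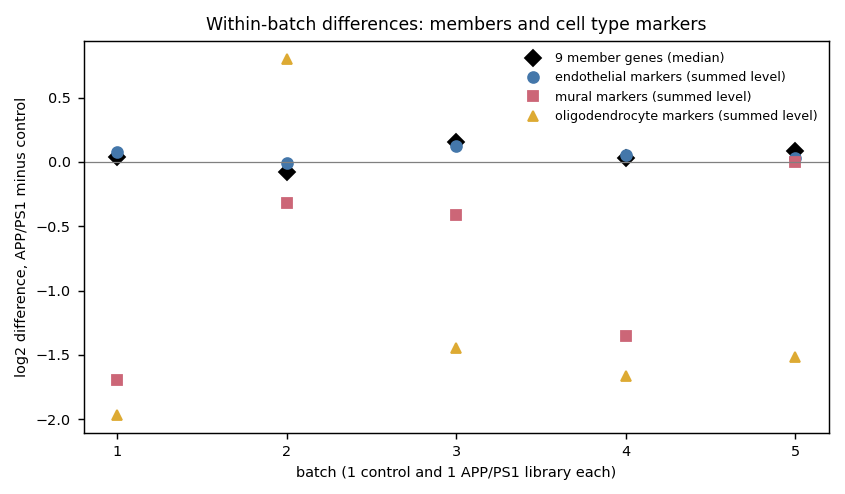
Within-batch difference between APP/PS1 and control (vertical axis, log2) in each of the 5 batches (horizontal axis) for the median of the 9 genes, and for the summed levels of endothelial, mural and oligodendrocyte markers. The 9 genes stay between −0.08 and 0.15 while the mural sum reaches −1.70 in batch 1 and the oligodendrocyte sum ranges from −1.96 to 0.80.

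Barrier genes were measured last, from a list of genes known to depend on the pathway or to define the barrier. All 10 listed barrier genes had values, and limma and limma-voom each called 0 of 10, as each called 0 of all 14106 genes. None had an unadjusted limma p under 0.05, beside 8.03% of all genes. In all, 8 were higher and 2 lower in APP/PS1, with a median of 0.05, beside 48.2% of all genes higher. Slco1c1, the thyroid hormone carrier, was 11.31, 11.32, 11.17, 11.27 and 11.34 log2 CPM in control libraries 1 to 5 and 11.40, 11.40, 11.55, 11.46 and 11.38 in APP/PS1. Its groups did not overlap, which held for 1 of the 10 barrier genes, beside 7.88% of all genes. The Slco1c1 difference of 0.16 did not pass the test (−0.00 to 0.31, limma adjusted p = 0.632). Mfsd2a, the lipid transporter that limits transcytosis, was at 0.18 (−0.03 to 0.40) and the amino acid carrier Slc7a5 at 0.16. The tight junction genes Cldn5, Ocln and Tjp1 were at 0.01, 0.02 and 0.09, the efflux pump Abcb1a at 0.03, the matrix proteoglycan Spock2 at 0.08 and the glucose carrier Slc2a1 at −0.06. Plvap, a protein of leaky, fenestrated vessels that canonical Wnt signalling keeps low, was at −0.01 with the widest interval of these genes (−0.49 to 0.47). It was lower in APP/PS1 in 4 of 5 batches and higher only in batch 1, and without the libraries numbered 1 its difference was −0.22.

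Among 7557 genes outside all lists whose mean was 4 log2 CPM or more, the within-batch differences most like the mean of the 9 genes were those of Rab21 (r = 0.994), Map3k2 (r = 0.990) and Senp6 (r = 0.990). Each r is over 5 differences from the same libraries, and 42 genes reached an r of at least 0.95.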

How the data were processed

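The authors aligned reads to mm10 with STAR, counted them with HTSeq, left out weakly expressed genes with edgeR's filter and deposited batch-corrected log2 CPM of 14106 genes, with tool versions not given in the sources used here. The deposited log2 values converted to whole numbers in 100% of cases (tolerance 0.02, prior count 3). These adjusted counts are not reads, so no counting error was taken from them. Levels per length are adjusted CPM divided by the union of exon lengths. R 4.3.3 and limma 3.58.1 (lmFit and eBayes) were fitted to all genes with genotype and the replicate number as a block, which left 4 residual degrees of freedom, and Benjamini-Hochberg adjustment used a threshold of 0.05. The study shows 5 batches in a figure, each with 1 library per genotype, whereas the labels give 4 with numbers 4 and 5 sharing 1. Pairs 4 and 5 had means a median of 0.00306 log2 units apart when matched by number and 0.0721 when crossed, and deviations within a number had correlations of −0.97 to −0.939 across 10873 genes, their sign being fixed by the correction. The fits were checked on simulated data. Members and lists were chosen with earlier results of these data known. Named were the 9 genes, the ligand, receptor, target and barrier genes, each list's top gene by level and by p, and the 3 most similar genes. Other named transducers, nuclear factors and inhibitors were chosen after their values were seen. The value of 1 target gene is not reported here.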

Additional observations from a re-analysis of the deposited data

How the results depend on the processing

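No alternative called any of the 9 genes or the 10 barrier genes. The number of genes called over the whole table was 0, but 648 without the replicate block, and 1 with the 4 batches of the labels. Without the block 4 other Wnt genes passed (Apc2, Dkk3, Nkd2 and Wnt5a) and the smallest adjusted p of the 9 genes was 0.137, with 1 of 9 at an unadjusted p under 0.05, beside 21.6% of all genes. That fit does not count the degrees of freedom that the batch correction used. Leaving out each replicate number in turn gave 0 to 5 calls, with 5 without replicate 2 and 1 without replicate 5. None was among the 9 genes, the other Wnt genes or the barrier genes. A smaller prior count, limma-voom, equal library medians, a mean of at least 1 log2 CPM, eBayes with a trend and a threshold of 0.10 gave 0, as did leaving out replicates 1 and 3 together, chosen after seeing the data. The median of the 9 genes stayed between 0.04 and 0.09. Signs turned in 10 of 117 refits of single genes. Over the fits that left out 1 replicate number, Apcdd1 ran from −0.059 (without replicate 3) to 0.19, Lrp5 from −0.0044 (without replicate 4) to 0.0764, Reck from −0.0651 to 0.028 (without replicate 2) and Tspan12 from −0.0281 to 0.0114 (without replicate 2). The others kept their sign, Fzd4 from 0.045 to 0.117, Lrp6 from 0.062 to 0.110, Adgra2 from 0.014 to 0.110, Lef1 from 0.049 to 0.121 and Axin2 from 0.065 to 0.195. Reck also turned without replicate 1, at 0.0282, and Tspan12 without replicates 4 and 5, at 0.0090 and 0.0062. With equal medians, which move the median of all genes to 0.0169, Reck was 0.0062 and Tspan12 0.0197, and with voom Tspan12 was 0.00088. The cause of these changes was not tested. With 5 batches, changes that lie within the intervals are not excluded.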
